A study of Mus musculus with 21 samples.

Results

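The pericyte genes described here are 10 genes that are commonly used to recognise pericytes, taken from the deposited counts by their symbols: *Pdgfrb*, *Rgs5*, *Cspg4*, *Kcnj8*, *Abcc9*, *Mcam*, *Rgs4*, *Higd1b*, *Ndufa4l2* and *Steap4*. All 10 were among the 46517 Ensembl genes counted, and all 10 passed the expression filter that left 14324 genes for testing. They were followed in bulk RNA-sequencing of the left ventricle of the heart from 4 control (Notch3+/+) and 3 Notch3-/- mice, all of the c57bl/6j strain and 10 to 14 months old. The Notch3-/- mice lack the receptor in the whole body, through a lacZ insertion in the *Notch3* locus, so the genotype is not limited to mural cells. The labels do not give the sex of a mouse. Each mouse gave 3 technical libraries, 21 in all, and replication was counted by mouse, from the sum of its libraries. Libraries held 464390 to 2134368 counts in control mice and 979804 to 2427783 in Notch3-/- mice. The summed depth of control mice 1 to 4 was 3091461, 4638786, 4208205 and 3046326 counts. That of Notch3-/- mice 1 to 3 was 3828763, 5167869 and 5086740 counts.

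Pericytes are the mural cells of capillaries, embedded in the basement membrane that they share with the endothelium, and in the heart they are among the most abundant non-muscle cells. Endothelial cells recruit and keep them by secreting PDGF-B, which acts on the receptor encoded by *Pdgfrb*, while Notch3 is the Notch receptor of pericytes and vascular smooth muscle cells. None of the 10 genes is limited to pericytes, since several are also read in smooth muscle cells, fibroblasts or liver cells.

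In Notch3-/- hearts 3 of the 10 genes, *Rgs5*, *Cspg4* and *Ndufa4l2*, lay below every control mouse in all 3 mice, and the other 7 overlapped between the genotypes; of all genes tested 3.96% were lower and 4.57% higher without overlap. None of the 10 passed the thresholds for a call, an FDR (false discovery rate) under 0.05 over all genes tested together with a change of 1.5-fold or more. Only *Notch3* passed them, 0.00698% of all genes tested, so 0 of 10 says little about the members. The receptor gene *Pdgfrb* differed by less than the spread between mice. In bulk tissue, fewer pericytes and less RNA of a gene in each pericyte cannot be told apart.

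The knocked-out gene was read first as a check on the labels. *Notch3* was measured in CPM, counts scaled by the mouse's total over the tested genes and its TMM factor, at 57.3, 42.1, 57.6 and 61.8 in control mice 1 to 4. In Notch3-/- mice 1 to 3 it was at 6.01, 7.57 and 4.73 CPM. The values were low in each mouse labelled Notch3-/- and the groups did not overlap. With edgeR on all 7 mice *Notch3* was the only gene called between the genotypes, 0.00698% of those tested, and its log2 fold change was -3.16 (SE 0.23). The quasi-likelihood test of edgeR gave it a Benjamini-Hochberg FDR of 0.00173. The count of genes called depended strongly on the setting: DESeq2, the tool that the study names, called 601 of 17013, and edgeR called 639 with every counted gene and 936 without Notch3-/- mouse 3. The labelled tissue was read from cardiomyocyte markers, all 10 of which had counts in every mouse. Their summed level was between 23917 and 32584 CPM in control mice and between 21437 and 32363 CPM in Notch3-/- mice, with *Ttn*, the long gene of the sarcomere protein titin, taking the most CPM (CPM is not corrected for length).

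Levels can be set against each other only per length of exon. *Rgs5* was the most abundant member, with 107 ± 14.6 CPM per kilobase (SD, n = 7 mice), followed by *Abcc9* with 51.6 ± 6.86. *Kcnj8* (29.4 ± 4.18), *Steap4* (28.2 ± 13.7) and *Ndufa4l2* (21.7 ± 5.48) came next. *Steap4* did not differ from the other 2 beyond its spread, while *Kcnj8* was above *Ndufa4l2* in all 7 mice. *Mcam* (18.8 ± 2.24), *Pdgfrb* (15.7 ± 2.46) and *Higd1b* (15.2 ± 2.62) followed, and the last 2 did not differ beyond their spread. This order is over both genotypes, and neighbours from *Kcnj8* to *Higd1b* change places within a genotype, *Steap4* coming before *Kcnj8* in Notch3-/- mice and after *Ndufa4l2* in controls. The lowest were *Rgs4*, with 8.23 ± 0.838 CPM per kilobase, and *Cspg4*, with 1.98 ± 0.536. The least covered in counts was *Higd1b*, with 36 to 76 counts per mouse.

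**Figure D1:**
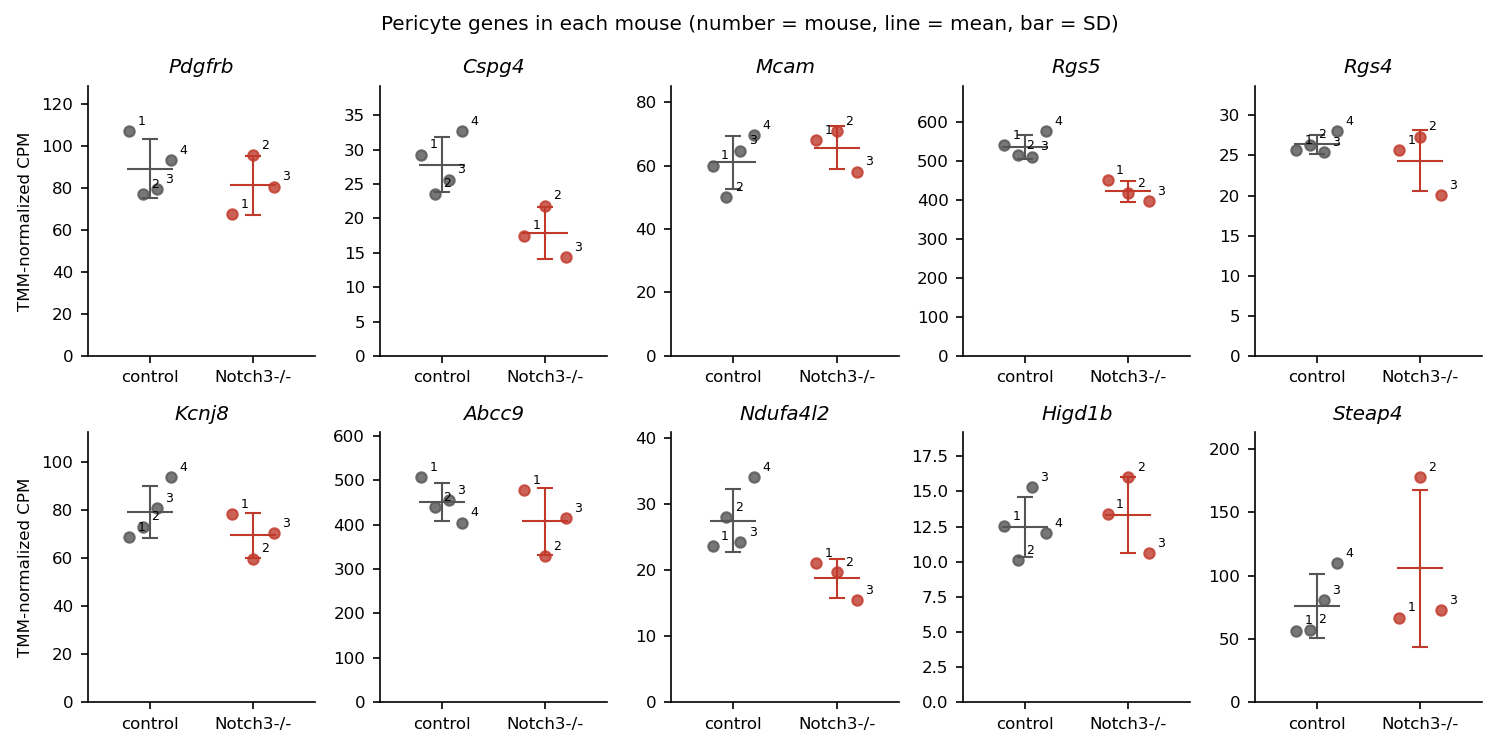
TMM-normalized CPM of the 10 pericyte genes (y axes, each starting at 0) in control and Notch3-/- mice, with 1 point per numbered mouse, the mean as a horizontal line and the SD as a bar (4 control and 3 Notch3-/- mice). *Rgs5*, *Cspg4* and *Ndufa4l2* lie lower in each Notch3-/- mouse than in each control mouse, and *Steap4* is high in Notch3-/- mouse 2 alone, at 178 CPM.

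*Pdgfrb* (ENSMUSG00000024620, plus strand of chromosome 18, 61045150 to 61085061 in GENCODE vM21 on GRCm38) encodes the PDGF receptor beta, through which endothelial PDGF-B attracts and maintains mural cells. It had 107, 77.1, 79.5 and 93.5 CPM in control mice 1 to 4 and 67.8, 95.9 and 80.7 CPM in Notch3-/- mice 1 to 3. Notch3-/- mouse 1 lay below the controls and the other 2 lay inside their range, so the groups overlapped. The log2 fold change was -0.13 with a 95% interval from -0.52 to 0.26 (FDR 0.843, edgeR with Benjamini-Hochberg adjustment). With technical library 3 alone the estimate was 0.08, so its direction depended on the library. Its paralog *Pdgfra*, which marks fibroblasts in the heart, had 55.8 to 84.3 CPM in control mice and 54.9 to 77.2 CPM in Notch3-/- mice (log2 fold change 0.03), and this sign turned with technical library 1 alone and without some single mice.

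The ligands of the PDGF family were measured as a list of 4 genes, all of which passed the filter. *Pdgfb*, the endothelial ligand that acts on the pericyte receptor, had 17.8, 14.5, 16.9 and 21.04 CPM in control mice and 12.8, 13.0 and 13.2 CPM in Notch3-/- mice. The groups did not overlap, but the log2 fold change of -0.42 (SE 0.21, FDR 0.522 in the same test) was not called, and it was 0.08 with technical library 1 alone. *Pdgfd*, whose product also acts on this receptor, had 25.4, 37.1, 36.2 and 38.4 CPM in control mice and 37.7, 59.5 and 58.2 CPM in Notch3-/- mice. Notch3-/- mice 2 and 3 were high and mouse 1 lay inside the control range (log2 fold change 0.60, SE 0.21, FDR 0.357, edgeR). Of 14 further partners of mural cell recruitment, with *Cdh2* highest in CPM, 13 were tested; 1 was higher with an unadjusted p under 0.05, *Angpt2*, whose product antagonises the Tie2 receptor in many settings. It had 5.48 to 11.7 CPM in control mice and 16.7, 9.25 and 23.8 CPM in Notch3-/- mice, so mouse 2 overlapped with the controls (log2 fold change 0.95, FDR 0.438, edgeR). *Tek*, the gene of that receptor, was higher without overlap, with 71.5 to 92.9 CPM in controls and 93.2 to 107 CPM in Notch3-/- mice (FDR 0.499, edgeR).

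*Cspg4* (ENSMUSG00000032911, plus strand of chromosome 9, 56865033 to 56899870) encodes NG2, a membrane proteoglycan on the surface of pericytes and smooth muscle cells. It had 29.3, 23.6, 25.6 and 32.7 CPM in control mice 1 to 4 and 17.5, 21.9 and 14.4 CPM in Notch3-/- mice 1 to 3. All 3 Notch3-/- mice lay below all 4 control mice, mouse 2 by the smallest margin. Control mice averaged 27.8 ± 4.03 CPM (SD, n = 4) and Notch3-/- mice 17.9 ± 3.77 CPM (SD, n = 3). The log2 fold change was -0.63 with a 95% interval from -1.11 to -0.15, and its FDR was 0.339 in edgeR with Benjamini-Hochberg adjustment, so it was not called. With 64 to 112 counts per mouse, *Cspg4* was among the thinly covered members.

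*Mcam* (ENSMUSG00000032135) encodes CD146, an adhesion molecule of pericytes, smooth muscle and endothelial cells. It had 49.9 to 69.5 CPM in control mice and 58.1 to 70.9 CPM in Notch3-/- mice, with the groups mixed (log2 fold change 0.11, SE 0.15, FDR 0.859, edgeR). It was -0.19 with technical library 1 alone and -0.04 in the mice whose labels start with k, so no direction can be given. Its relative *Alcam* was barely covered: the controls held 1 to 10 counts, and Notch3-/- mice 1 to 3 held 14, 93 and 0. Its log2 fold change of 2.68 (SE 1.16, FDR 0.475, edgeR) covers mice on both sides of the controls, since mouse 3 had no count.

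*Rgs5* (ENSMUSG00000026678, plus strand of chromosome 1, 169655501 to 169695813) encodes a regulator of G-protein signalling that shortens the response of mural cells to vasoactive receptors, and it is among the most used pericyte markers. It had 540, 514, 511 and 576 CPM in control mice 1 to 4 and 451, 417 and 397 CPM in Notch3-/- mice 1 to 3. The highest Notch3-/- mouse stayed below the lowest control mouse. The means were 535 ± 30.3 CPM (SD, n = 4) and 422 ± 27.4 CPM (SD, n = 3), and the log2 fold change was -0.34 with a 95% interval from -0.56 to -0.12. Its edgeR FDR was 0.249 after Benjamini-Hochberg adjustment. DESeq2 gave an adjusted p of 0.0435 with a log2 fold change of -0.35, which is under the fold threshold, so *Rgs5* was not called there either; over the 19 alternatives its FDR ran from 0.0435 to 0.885.

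*Rgs4* (ENSMUSG00000038530) encodes a related regulator and lies next to *Rgs5*, on the opposite strand of chromosome 1 with 45663 bases and no other annotated gene of the table between them. Its level in control mice was narrow, 25.7, 26.3, 25.4 and 28.1 CPM, and it was 25.7, 27.3 and 20.04 CPM in Notch3-/- mice. Only Notch3-/- mouse 3 lay below the controls, and without it the log2 fold change moved from -0.12 (SE 0.18, FDR 0.866, edgeR) to 0.0023. Whether the neighbours differ from each other was not tested. Of the other regulators of this family that were measured, *Rgs2* had 72.1 to 102 CPM in control mice and 74.9, 48.6 and 58.4 CPM in Notch3-/- mice, so that mice 2 and 3 lay below the controls (log2 fold change -0.56, SE 0.18, FDR 0.324, edgeR). *Rgs16* was covered by 2 to 11 counts in each control and by 41, 330 and 11 counts in Notch3-/- mice 1 to 3, so mouse 3 lay inside the control range (log2 fold change 3.79, SE 0.98, FDR 0.204, edgeR). Of 12 paralogs 11 were tested, and 1 was lower (*Rgs2*) and 2 were higher (*Rgs16* and *Alcam*) with an unadjusted p under 0.05, 0 being called.

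*Kcnj8* (ENSMUSG00000030247) and *Abcc9* (ENSMUSG00000030249) encode the pore Kir6.1 and the regulatory subunit SUR2 of an ATP-sensitive potassium channel that sets the membrane potential of mural cells; SUR2 is also part of the channel of cardiomyocytes. They lie on the minus strand of chromosome 6, 16247 bases apart. *Kcnj8* had 68.8, 73.1, 80.7 and 93.5 CPM in control mice and 78.2, 59.7 and 70.5 CPM in Notch3-/- mice. Notch3-/- mouse 2 was the lowest of all 7 and the other 2 lay inside the control range (log2 fold change -0.19, 95% interval from -0.54 to 0.17, FDR 0.730, edgeR). *Abcc9* had 506, 438, 455 and 404 CPM in control mice and 478, 329 and 415 CPM in Notch3-/- mice. Again Notch3-/- mouse 2 was the lowest and the groups overlapped (log2 fold change -0.15, 95% interval from -0.46 to 0.17, FDR 0.759, edgeR). *Kcnj11*, the pore gene of the cardiomyocyte channel, had 30.6 to 48.4 CPM in control mice and 27.1 to 47.3 CPM in Notch3-/- mice, and its log2 fold change of -0.17 (SE 0.22, edgeR) was 0.0032 without Notch3-/- mouse 2. *Abcc9* also overlaps an antisense gene over 11868 bases, which had 29 to 44 counts per mouse, and whether the counting used strand is not given in the sources used here.

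*Ndufa4l2* (ENSMUSG00000040280, plus strand of chromosome 10, 127514967 to 127517154) encodes a mitochondrial protein related to a subunit of cytochrome c oxidase and is known to respond to low oxygen. It had 23.7, 28.0, 24.2 and 34.1 CPM in control mice 1 to 4 and 21.04, 19.8 and 15.5 CPM in Notch3-/- mice 1 to 3. The groups did not overlap, with control mice 1 and 3 closest to the Notch3-/- mice. The log2 fold change was -0.55 with a 95% interval from -1.02 to -0.09 and an FDR of 0.396 (edgeR with Benjamini-Hochberg adjustment). Its 72 to 133 counts per mouse limit the precision, and it shares 32 bases at its end with *Shmt2* on the other strand. The paralog *Ndufa4*, which heart muscle reads at a high level, had 263 to 402 CPM in control mice and 235 to 312 CPM in Notch3-/- mice (log2 fold change -0.27). *Cox4i2*, a subunit of the same enzyme from the list of other mural genes, had 16.8, 11.2, 16.2 and 12.0 CPM in control mice and 5.74, 6.73 and 8.13 CPM in Notch3-/- mice. All 3 Notch3-/- mice were below all control mice (log2 fold change -1.02, SE 0.27, FDR 0.207, edgeR).

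*Higd1b* (ENSMUSG00000020928), a mitochondrial gene of the hypoxia-inducible domain family, had 12.5, 10.1, 15.3 and 12.0 CPM in control mice and 13.4, 16.0 and 10.6 CPM in Notch3-/- mice. The groups were mixed. Its log2 fold change of 0.09 (SE 0.25, FDR 0.933, edgeR) was below 0 under 5 of 19 alternatives, so no direction can be given.

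*Steap4* (ENSMUSG00000012428) encodes a metalloreductase of iron and copper that pericytes, fat and liver read. It had 56.6, 57.5, 80.7 and 110 CPM in control mice 1 to 4 and 66.9, 178 and 72.8 CPM in Notch3-/- mice 1 to 3. Notch3-/- mouse 2 was far above the rest, and the other 2 lay inside the control range. The log2 fold change was 0.47 (SE 0.36, FDR 0.684, edgeR), and without Notch3-/- mouse 2 it was -0.12.

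**Figure D2:**
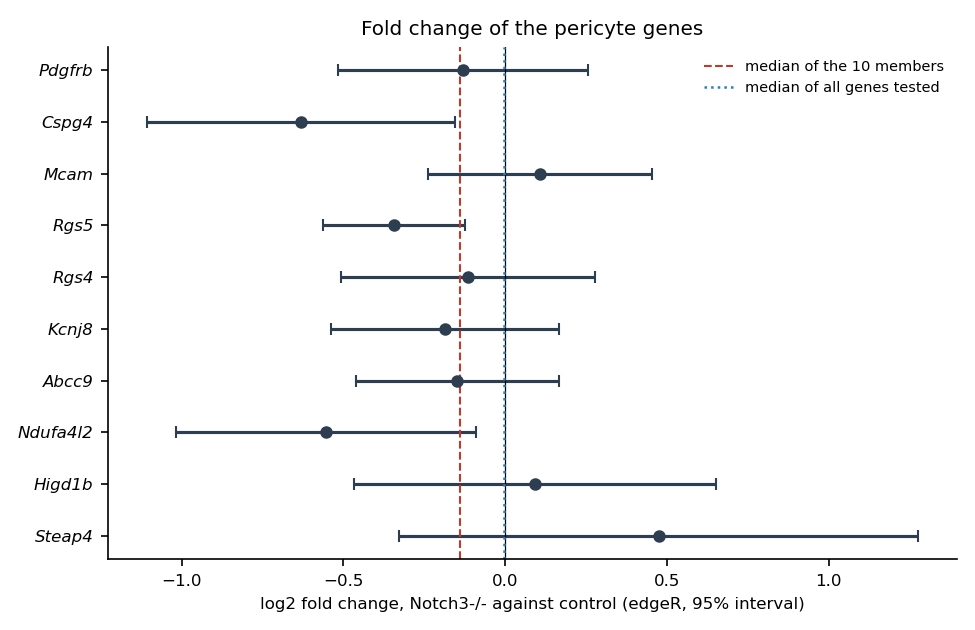
Log2 fold change of each pericyte gene between Notch3-/- and control mice (x axis; points, edgeR estimates; bars, 95% intervals), with the median of the 10 genes and that of all 14324 genes tested as lines. The intervals of *Rgs5*, *Cspg4* and *Ndufa4l2* end below 0 and the other 7 include 0.

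Read as a list, 7 of the 10 genes were lower and 3 were higher, with a median log2 fold change of -0.14, beside -0.00284 for all genes tested. Such a median was not particular to these 10. It was -0.22 for cardiomyocyte markers, -0.22 for vascular smooth muscle markers and -0.14 for other mural genes. For endothelial markers it was -0.06 and for fibroblast markers 0.07. By edgeR 0 of the 10 were called, and DESeq2 and limma-voom also called 0. Of all genes edgeR called 1 of 14324 (0.00698%), DESeq2 601 of 17013, and the limma-voom fits 65 and 62 of 11193. With an unadjusted p under 0.05, 3 members were lower and 0 were higher, where 3.05% of all genes were lower and 7.34% higher by the same rule. The groups did not overlap for the same 3 genes, all lower in Notch3-/- mice, and for 0 genes that were higher, where 3.96% of all genes tested were lower without overlap and 4.57% higher; a random split of 7 mice gives 2.86% in each direction. The members were chosen with results known, so these counts are a description of the 10 genes.

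The 3 lower genes were also read in each technical library. The libraries are the parts of the summed counts by which these 3 were picked. The 9 Notch3-/- libraries come from 3 mice, so their counts add no independent support. *Rgs5* had 471 to 646 CPM in the 12 control libraries, median 524, and 314 to 499 CPM in the 9 Notch3-/- libraries, median 405. All 9 were below the control median and 7 were below the lowest control library. For *Cspg4* the 9 libraries (12.3 to 25.8 CPM, median 17.3) were all below the control median of 27.1, and none was below the lowest control library, 12.1. For *Ndufa4l2* they ran from 12.2 to 23.7 CPM, median 19.4, and all 9 were below the control median of 27.7, while 1 was below the lowest control library. Among the other 7 members, 2 (*Steap4*) to 7 (*Kcnj8*) of the 9 libraries were below the control median. Libraries of 1 mouse scattered more than counting error alone gives: the chi-square over the libraries of a mouse was 7.85 per degree of freedom for *Rgs5*, 1.83 for *Cspg4*, 2.61 for *Ndufa4l2* and 23.3 for *Abcc9*.

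**Figure D3:**
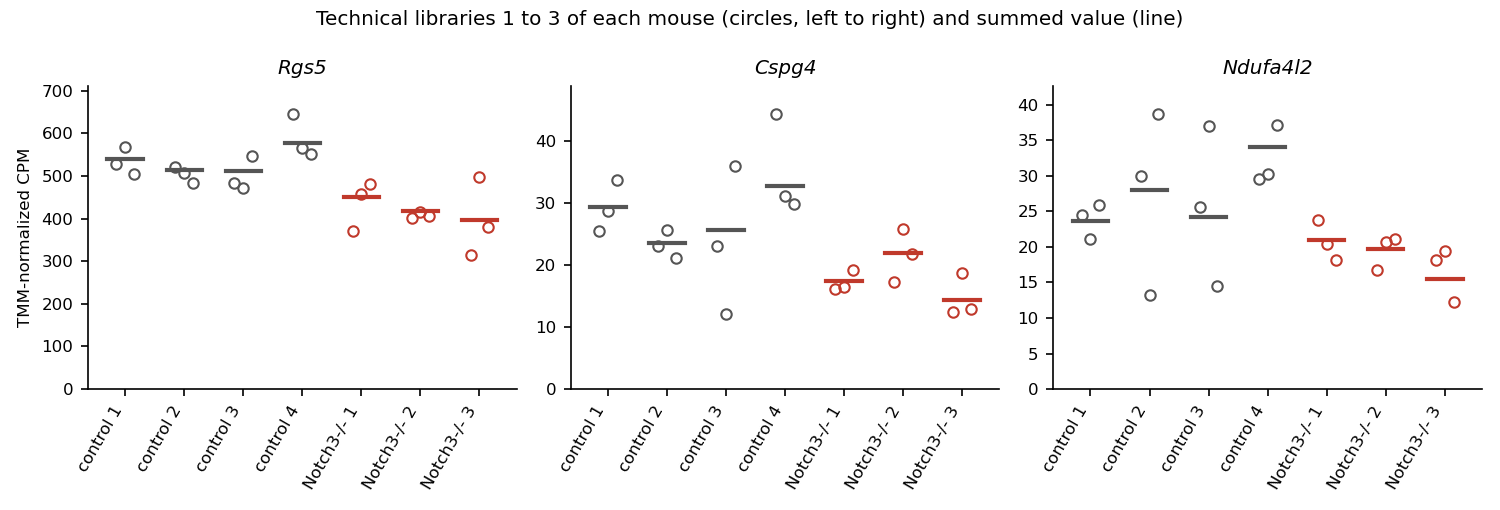
TMM-normalized CPM (y axes) of *Rgs5*, *Cspg4* and *Ndufa4l2* in the 21 technical libraries (open circles, libraries 1 to 3 from left to right) and in the summed counts of each mouse (lines). The 9 Notch3-/- libraries of *Rgs5* lie between 314 and 499 CPM, and those of the 2 thinly covered genes scatter more in proportion to their median.

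The 3 genes were also set against the endothelium, since pericytes and endothelial cells sit together in capillaries. The 11 endothelial markers had a summed level of 1335 to 1729 CPM in control mice and 1570 to 1593 CPM in Notch3-/- mice. Of the 11, 0 had an unadjusted p under 0.05 in edgeR. *Kdr*, a receptor for VEGF, took the most CPM (128 to 291 CPM in controls, 251 to 322 CPM in Notch3-/- mice, log2 fold change 0.43). *Rgs5* amounted to 33.7, 38.5, 33.0 and 33.3 CPM for each 100 endothelial CPM in control mice and to 28.7, 26.2 and 25.3 in Notch3-/- mice. The same held for *Cspg4*, with 1.79 ± 0.101 (SD, n = 4) against 1.13 ± 0.230 (SD, n = 3), and for *Ndufa4l2*, with 1.78 ± 0.303 against 1.19 ± 0.181. The groups did not overlap for these 3 on this scale and overlapped for the other 7; since the endothelial sum of the Notch3-/- mice lay inside the control range, the ratio adds no independent support.

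Of 24 other mural genes 22 were tested, and 4 were lower and 4 higher with an unadjusted p under 0.05; the list median was -0.14. Lower were *Notch3*, *Cox4i2* and the guanylate cyclase subunits *Gucy1a1* and *Gucy1b1*, each without overlap, and among the higher were *Vtn*, *Enpep* and *Anpep*, of which *Enpep* did not overlap. *Des* took the most CPM. *Vtn*, which pericytes read for the matrix protein vitronectin and hepatocytes secrete, had 53.6 to 69.8 CPM in control mice and 295, 697 and 54.3 CPM in Notch3-/- mice (log2 fold change 2.57, SE 0.61, FDR 0.168, edgeR). *Enpep*, an aminopeptidase of pericytes that is also found in liver and kidney, had 15.7 to 23.3 CPM in control mice and 28.4, 115 and 26.7 CPM in Notch3-/- mice (log2 fold change 1.51, SE 0.47, FDR 0.290, edgeR). Notch3-/- mouse 2 was the highest for both, as for *Steap4*. Among 9 tested markers of vascular smooth muscle, 7 had an edgeR log2 fold change below 0 and 2 above, *Acta2* and *Mylk* (median -0.22), and 3 were lower with an unadjusted p under 0.05. *Myh11*, the smooth muscle myosin, had 39.8, 20.4, 10.6 and 19.7 CPM in control mice and 3.28, 5.05 and 3.59 CPM in Notch3-/- mice, with no overlap (log2 fold change -2.49, SE 0.45, FDR 0.118, edgeR). *Myl9* and *Tagln* were lower with overlapping groups (log2 fold changes -0.88 and -0.93).

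Markers of another organ were high in 2 of the 3 Notch3-/- mice. The 20 hepatocyte markers summed to 200, 296, 116 and 129 CPM in control mice and to 7881, 13539 and 276 CPM in Notch3-/- mice 1 to 3, and all 16 that were tested were higher with an unadjusted p under 0.05. Over the 7 mice transferrin (*Trf*) took the most CPM, at 98.2 to 144 CPM in controls, while albumin (*Alb*) was above it in Notch3-/- mice 1 and 2 (1705 and 1875 CPM) and per kilobase (230 against 164 CPM). All 20 had counts in each Notch3-/- mouse, 14 to 20 in control mice. The 10 hepatic stellate markers, of the pericyte-like cells of the liver, summed to 107 to 149 CPM in control mice and to 170, 275 and 136 CPM in Notch3-/- mice, *Ecm1* taking the most CPM and *Lhx2* at 0 in the control mice; 5 were tested, and *Reln*, *Vipr1* and *Ecm1* were higher with an unadjusted p under 0.05. Notch3-/- mouse 2 was the highest in both lists, as in *Steap4*, *Vtn*, *Enpep*, *Rgs16* and *Alcam*; the part of liver RNA in those levels was not tested. The adipocyte sum was also highest in that mouse, 21.03 CPM, beside 6.01 and 0.189 CPM in Notch3-/- mice 1 and 3, but *Cidec* alone made up 18.9 CPM of it and 1 of the 6 markers was above every control. The part of fat was not tested. Notch3-/- mouse 3 had a hepatocyte sum inside the control range, but 12 of all 20 hepatocyte markers, tested or not, were above every control mouse in it (all 20 in mice 1 and 2), such as *Cyp2e1* with 6.43 CPM against 5.69 CPM at most. It was set alone against the 4 control mice, a comparison added after the data were seen that assumes the lone mouse to vary like the controls. There the log2 fold change was -0.43 for *Rgs5*, -0.94 for *Cspg4* and -0.82 for *Ndufa4l2*, and -0.06 for *Steap4* (edgeR). All 10 members were below 0 there. The first 3 had been picked as lower in every Notch3-/- mouse, and mouse 3 was the lowest of all 7 mice for each. Their direction in it was thus fixed in advance and adds no support.

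**Figure D4:**
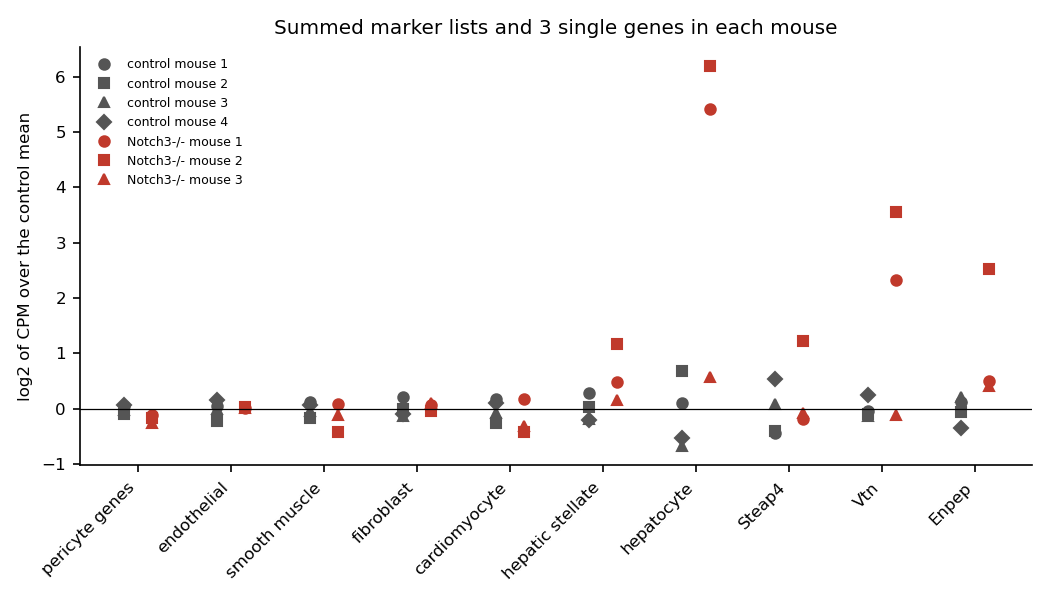
Log2 ratio of the summed CPM of 7 marker lists, and of the CPM of *Steap4*, *Vtn* and *Enpep*, to the mean of the control mice (y axis) in each mouse (symbols; grey, control; red, Notch3-/-). The hepatocyte list and *Vtn* stand far up in Notch3-/- mice 1 and 2, *Steap4* and *Enpep* most in mouse 2, and the sum of the pericyte genes is 1155 to 1288 CPM in Notch3-/- mice and 1299 to 1455 CPM in control mice, ranges that overlap once *Rgs5* or *Abcc9* is left out.

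The other lists held no called gene. Of 10 fibroblast markers, with *Gsn* highest in CPM, 4 were higher with an unadjusted p under 0.05, the collagen genes *Col3a1*, *Col1a1* and *Col1a2* and *Pi16*, and 1 was lower, the proteoglycan gene *Dcn*. *Col3a1* ranged from 206 to 295 CPM in controls and from 360 to 526 CPM in Notch3-/- mice, without overlap (log2 fold change 0.79, SE 0.16, FDR 0.126, edgeR). All 10 cardiomyocyte markers had a log2 fold change below 0 (median -0.22), and 0 had an unadjusted p under 0.05. Of 9 tested macrophage markers 1 was higher, the mannose receptor gene *Mrc1*, and of 5 erythroid markers 2 were lower, *Hba-a1* and *Hbb-bs*. Neither of the tested Schwann cell markers had an unadjusted p under 0.05, and 0 of the 6 adipocyte markers passed the filter. The 5 sex-linked genes had none under it either, and *Xist* was at 238 CPM in control mouse 2 and 472 CPM in Notch3-/- mouse 1, and at 8.23 CPM or lower in the other 5 mice. *Ddx3y* of the Y chromosome was at 0.843 and 0.273 CPM in these 2 mice and at 96.2 to 134 CPM in the other 5. Each genotype thus held 1 mouse with the female pattern, and sex was not part of the fits.

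Genes whose pattern over the 7 mice was most like a member were found among 8585 tested genes with a mean of at least 20 CPM, by Pearson's r of log2 CPM, as a description only. For *Pdgfrb* they were *Crtc1* (r 0.97), *Scarb2* (0.95), *Gm27505* (0.95), *Ly6a* (0.94) and *Ebf1* (0.91), a transcription factor on the list of other mural genes. Among those for *Rgs5* were *Neo1* (r 0.98), *Bcl2l2* (0.97), *Hnrnpul1* (0.97) and *Doc2g* (0.96). *Pdgfrb* and *Rgs5* followed each other loosely (r 0.31), while *Ndufa4l2* (r 0.92) and *Cspg4* (r 0.90) ranked in places 26 and 35 for *Rgs5*; the 7 mice hold both genotypes, so a difference between genotypes enters each r.

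**Figure D5:**
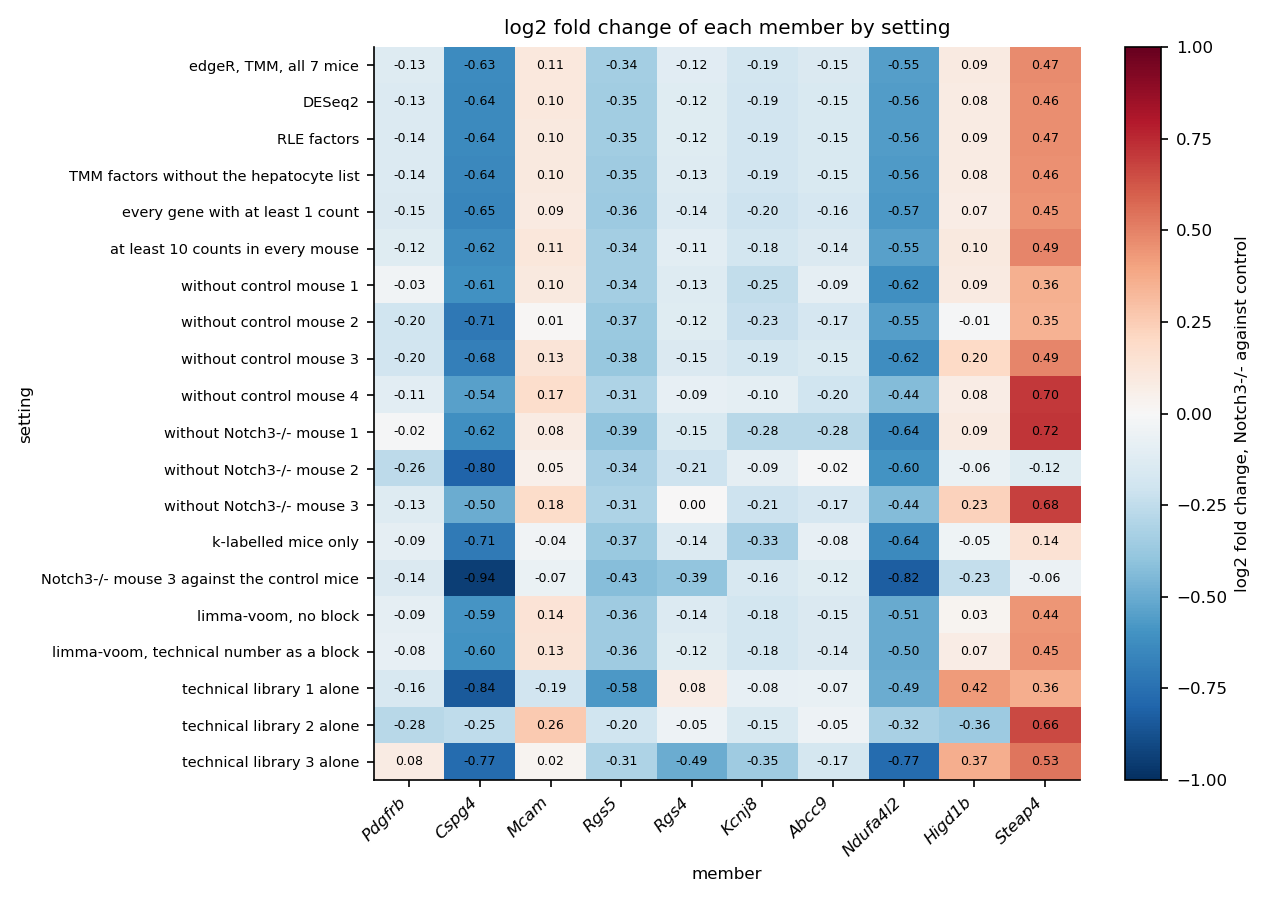
Log2 fold change (colour and number) of the 10 pericyte genes (x axis) under the edgeR test of all 7 mice and 19 alternatives (y axis). *Rgs5*, *Cspg4*, *Ndufa4l2*, *Abcc9* and *Kcnj8* are below 0 in all of them, and the other 5 change sign in at least 1.

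Sequence before the start of the genes was searched for 8 short motifs, which were chosen after the members' values were seen. Among them is that of CSL, the DNA-binding protein through which Notch receptors act. RefSeq promoters were given for 7 of the 10 members. *Pdgfrb*, *Higd1b* and *Ndufa4l2* had none and were not searched. The 250 bases before the start were read on both strands. TGGGAA, the core that CSL binds, was found in *Abcc9* and *Steap4*, 2 of 7, and in 21.6% of 32851 promoters of the same length; the longer GTGGGAA was in 0 of 7 (5.42% of all). The CArG box of smooth muscle genes was in 0 of 7 (1.47% of all), and ACGTG, the core of the hypoxia response element, also in 0 (16.6%). GGGGCGGGG was in *Cspg4* and *Mcam* (10.4% of all), TATAAA in *Rgs4* and *Steap4* (12.4%), CAGCTG in *Abcc9* and *Steap4* (13.0%) and CCGGAA in *Steap4* (12.0%). TGGGAA is part of GTGGGAA. A match is a description of these letters and no match says nothing of the factor. The promoters of *Rgs5* and *Cspg4* are shown as 2 of the 3 lower members, and that of *Abcc9* as 1 of the 2 members with the CSL core. Bases inside an annotated transcript are left off, with any motif there (the CAGCTG of *Abcc9* is not shown), and capitals mark the motifs in what is printed. The sequences are from RefSeq. They lie at chr1:169655251-169655500 (plus strand), chr9:56864854-56865032 (plus) and chr6:142702316-142702524 (minus) in GRCm38.p6.
Rgs5: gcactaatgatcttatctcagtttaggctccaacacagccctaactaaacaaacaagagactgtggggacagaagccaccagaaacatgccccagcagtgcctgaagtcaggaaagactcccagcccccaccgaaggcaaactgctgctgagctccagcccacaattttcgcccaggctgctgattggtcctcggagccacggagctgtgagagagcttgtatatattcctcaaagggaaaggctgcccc
Cspg4: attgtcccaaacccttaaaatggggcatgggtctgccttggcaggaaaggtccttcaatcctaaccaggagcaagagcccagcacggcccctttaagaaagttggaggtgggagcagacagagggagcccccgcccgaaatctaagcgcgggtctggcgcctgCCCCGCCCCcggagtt
Abcc9: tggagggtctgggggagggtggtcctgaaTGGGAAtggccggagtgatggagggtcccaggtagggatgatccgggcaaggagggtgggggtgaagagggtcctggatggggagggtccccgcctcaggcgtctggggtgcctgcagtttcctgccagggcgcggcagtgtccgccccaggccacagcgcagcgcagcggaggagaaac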

How the data were processed

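The authors deposited counts, whole numbers of reads per gene without normalization, for 21 libraries. Per the submitters' processing notes CASAVA and mm10 were used; the aligner and the counting program are not given in the sources used here. The cDNA was amplified by PCR, and molecular identifiers are not mentioned, so counts are not independent molecules. ERCC spike-ins (92 lines, 34 counts) were left out, and no column was unmapped. Counts of the 3 technical libraries were summed per mouse, and the depth was 3046326 to 5167869 counts. Genes were named and measured from GENCODE vM21 (GRCm38), where 46005 of 46517 identifiers were found.

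Genotypes were compared in R 4.3.3 with edgeR 4.0.16 (filterByExpr, TMM, quasi-likelihood test, genotype only), with Benjamini-Hochberg adjustment over all genes. Intervals are 95%. Alternatives used DESeq2 1.42.0, limma 3.58.1 (voom on 21 libraries, mouse as random effect), other factors and filters, leaving out single mice, only mice labelled k (the label series, X or k, is partly confounded with genotype: 2 controls are X, and 2 controls and all 3 Notch3-/- mice are k), and each technical library alone. The fits were tested on simulated data. The members and the 16 gene lists were chosen with earlier results of these data known. Named are the members, *Notch3*, their paralogs, PDGF ligands, the gene of most CPM and up to 4 genes of smallest unadjusted p under 0.05 of each other list, and genes among the 5 most like *Pdgfrb* and *Rgs5*. *Shmt2*, which overlaps a member, *Lhx2*, *Alb*, *Adipoq*, *Lep*, *Acta2*, *Mylk*, *Tek*, *Dcn*, *Gucy1a1*, *Gucy1b1*, *Anpep*, *Ddx3y* and the 8 motifs were chosen after values were seen. The transcripts of 8 members share no stretch of 50 bases with another gene; for *Abcc9* 1.95% and for *Rgs4* 0.286% of such stretches are shared.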

Additional observations from a re-analysis of the deposited data

Results flagged for a closer look

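A control mouse far from the other 3 was looked for in 44 values, and 3 were found, where chance gives about 1 in 20. *Pdgfra* had 84.3 CPM in control mouse 1 and 55.8 to 58.1 CPM in the other 3, a gap of 0.918 of the whole range. *Pdgfd* had 25.4 CPM in control mouse 1 and 36.2 to 38.4 CPM in the others, a gap of 0.833 of the range. The 6 adipocyte markers summed to 11.7 CPM in control mouse 4 and to 0.235 to 1.90 CPM in the others, a gap of 0.855 of the range, and 0 of the 6 were tested. In Notch3-/- mice 1 to 3 they summed to 6.01, 21.03 and 0.189 CPM, and *Cidec* made up 18.9 CPM of the sum in Notch3-/- mouse 2. *Adipoq* was at 2.34 CPM in control mouse 4 and at 0.210 CPM in that mouse, and *Lep* at 3.67 and 0 CPM. *Steap4*, which fat also reads, was highest of the controls in control mouse 4, at 110 CPM, and highest of all 7 mice in Notch3-/- mouse 2, at 178 CPM; the part of fat tissue in it was not tested.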

How the results depend on the processing

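The 10 members were refitted under 19 alternatives, 1 of them added after the data were seen (Notch3-/- mouse 3 against the control mice), and 0 were called in any. *Rgs5*, *Cspg4*, *Ndufa4l2*, *Abcc9* and *Kcnj8* stayed lower in all 19. *Rgs5* had an unadjusted p under 0.05 in 17, *Cspg4* in 17 and *Ndufa4l2* in 14. The median log2 fold change of the members moved by less than its spread over control mice.

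The count of all genes called depended on the setting: 601 with DESeq2, 639 with every gene that has a count, 65 with limma-voom on 21 libraries, 0 in the mice whose labels start with k (2 of 4 controls and all 3 Notch3-/- mice, where *Notch3* was -3.29), 48, 39 and 77 with technical library 1, 2 and 3 alone, and 1 to 936 without 1 mouse, the highest without Notch3-/- mouse 3. With the technical number as a replicate block limma-voom called 62. On simulated data the limma-voom fits called more unchanged genes than the fits on mice did, so their counts hold less weight. Technical numbers do not pair mice, and the deviations of libraries with the same number had a median correlation of -0.01 between mice. With FDR alone the edgeR count stayed 1, and DESeq2 called *Rgs5*. The cause was not tested.

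Of the values of 28 genes followed, 22 of 517 turned direction. Without 1 mouse, *Higd1b* ran from -0.0638 to 0.23, *Kcnj11* from -0.395 to 0.0032, *Pdgfra* from -0.13 to 0.19, *Rgs4* from -0.21 to 0.0023 and *Steap4* from -0.12 to 0.715. In the mice labelled k, *Higd1b* was -0.0462 and *Mcam* -0.0366. In Notch3-/- mouse 3 against controls, *Alcam* was -5.32 (0 counts in that mouse, so the value depends on the prior count and is no estimate of size), *Higd1b* -0.235, *Mcam* -0.0670, *Steap4* -0.0614 and *Vtn* -0.11. With technical library 1 alone *Mcam* was -0.19, *Pdgfb* 0.0767, *Pdgfra* -0.25 and *Rgs4* 0.0776; with library 2 alone *Higd1b* was -0.36; with library 3 alone *Pdgfrb* was 0.0789. The cause was not tested. Depth limits the thinly covered genes, such as *Alcam* with 0 to 93, *Cox4i2* with 21 to 69 and *Higd1b* with 36 to 76 counts per mouse.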
